A study of Mus musculus with 8 samples.

Results

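The sorting nexins were examined in sorted cells of mouse medulloblastoma, as all genes with a symbol made of Snx and a number. A total of 30 such genes had a probe set of their own on the array, of 22180 genes tested. The members were set by symbol alone, but the family was chosen with earlier results of these data known. The shares called below are therefore descriptions. The mean over the 8 arrays, which takes no account of the groups, picked 1 probe set for Snx11, the single member with several. Snx21 also shared a probe set with Acot8, which was not used.

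The tumours came from Patched1+/- mice (CD1) carrying a Sox2-eGFP reporter (B6 parents), which were all given ionizing radiation (3 Gy) at birth and were over 70 days old when signs of a brain tumour appeared. White blood cells (CD45) and red blood cells (Ter119) were depleted, and the reporter split the rest into Sox2-positive and Sox2-negative fractions. Each array held RNA of a pool of 3 tumours, with 4 pools a fraction, so the p-values measure the spread between pools. Both fractions carry the Patched1 allele and the radiation. The comparison asks how sorted cells that express the stem cell factor Sox2 differ from the others. Whether all sorted cells were tumour cells was not tested.

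Sorting nexins are proteins with a phox homology (PX) domain, which binds phosphoinositide lipids, chiefly phosphatidylinositol 3-phosphate on endosomes. They shape tubules of the endosome membrane and choose receptors for return to the Golgi or the cell surface, many of them together with retromer, a coat complex. SNX-BAR members add a domain that bends membranes, SNX-FERM members add one that reads sorting motifs in receptor tails, and members with PXA and PXC domains link the endoplasmic reticulum to endosomes, lysosomes or lipid droplets. Sorting nexin genes are active in most cell types.

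Correlations between arrays over all genes were 0.981 to 0.987 among Sox2-positive pools, 0.973 to 0.984 among Sox2-negative pools and 0.942 to 0.968 between them. Sox2 itself was at 5.67, 6.07, 6.36 and 5.68 in Sox2-positive pools 1 to 4 and at 4.05, 4.601, 4.49 and 4.04 in Sox2-negative pools 1 to 4 (deposited log2 values), in the direction of the sort. All 8 markers of oligodendrocyte progenitors and 7 of 9 astrocyte markers were higher in Sox2-positive cells, and all 9 markers of granule neuron progenitors and neurons were lower (limma adjusted p under 0.05). Over all genes 5.96% were higher and 2.52% lower, which is the share to set beside each marker count here. In these bulk samples, more cells of a type and more RNA per cell cannot be told apart. The mean of the oligodendrocyte progenitor markers ran from 8.80 to 9.42 in Sox2-positive and from 6.14 to 6.25 in Sox2-negative pools, and that of the astrocyte markers from 7.05 to 7.73 and from 6.19 to 6.35. The part of this shift in cell types in the sorting nexin values was not tested. Microglia markers, including Ptprc, which encodes CD45, had 0 of 9 members past the test, and their means lay between 5.63 and 5.73 in Sox2-positive and between 5.62 and 5.84 in Sox2-negative pools. As a guide to dim values, the upper quartile of 1394 olfactory and vomeronasal receptor genes, which cells of brain tumours are not known to use, was 5.80. Sox2 lay below this in all Sox2-negative pools and in Sox2-positive pools 1 and 4. Of 7 endothelial and mural cell markers only Rgs5, a pericyte gene, passed (1.29-fold higher).

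Sorting nexin genes moved in 1 direction where they passed the test: 10 of 30 were higher in Sox2-positive cells and 0 were lower. These were Snx22, Snx1, Snx32, Snx18, Snx13, Snx3, Snx33, Snx7, Snx14 and Snx25, with folds from 2.22 down to 1.29. The call rate of 33.3% stands beside 8.47% of all genes, 5.96% higher and 2.52% lower, with limma and Benjamini-Hochberg adjustment over all 22180 genes. Another 4799 genes had a mean level between the quartiles of the sorting nexins (6.08 to 6.91), here termed genes of like level. Of these 12.0% were called, 9.21% higher and 2.77% lower. This band leaves out Snx1, Snx32 and Snx3 above it and Snx33 below it. Of all other genes, 4.62% were called at a mean level of 5 to 6 and 11.8% at 6 to 7. At 7 to 8 it was 17.6%, and at 9 to 10 19.8%. In these classes 1 of 6, 6 of 18, 2 of 5 and 1 of 1 members were called. The values of the fractions did not overlap for 9 of the 30, in each case with the Sox2-positive pools above. Over all genes this held for 13.7% in either direction (7.63% with Sox2-positive pools above), and over the genes of like level for 17.8% (11.6%). The median log2 difference, Sox2-positive minus Sox2-negative, was 0.16 over the 30 members, -0.03 over all genes and -0.02 over these genes of like level. Of the 30 members 25 had a positive difference (83.3%), against 41.3% of all genes and 45.8% of those of like level. Quantile normalization left 10 members higher and 0 lower and lowered the members' median to 0.108, while the calls over all genes became 1282 higher (60.2% of calls) and 847 lower, from 1321 (70.3%) and 558.

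The count of called members depended on single pools and on the set of features fitted and adjusted over. Without Sox2-positive pool 2 it was 6, and over all genes the counts were 995 higher and 309 lower. Without Sox2-positive pool 3 it was also 6, beside 1029 higher and 384 lower over all genes. Fitting all 41345 probe sets, named or not, left 4 (Snx1, Snx22, Snx32 and Snx7), and of all genes 859 were then higher and 238 lower. In that fit Snx13 and Snx18 had an adjusted p of 0.0582 and 0.0596.

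**Figure D1:**
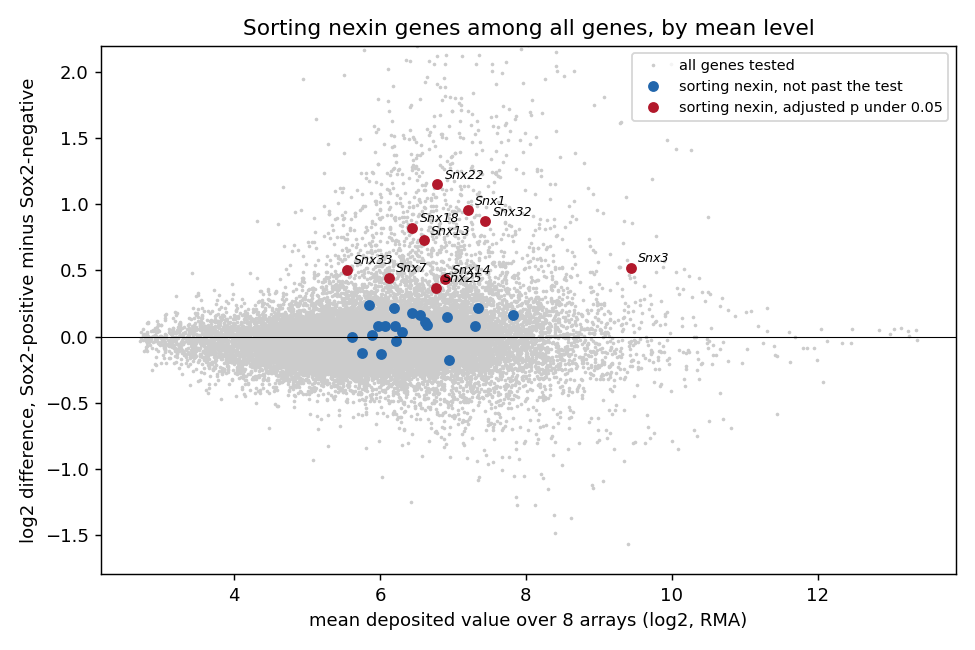
Log2 difference between the fractions (Sox2-positive minus Sox2-negative) against the mean deposited value over 8 arrays, for all 22180 genes (grey) and the 30 sorting nexins (blue, not past the test; red, adjusted p under 0.05). The 10 red points lie above 0 across the range of levels, and 60 genes lie outside the vertical axis.

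The 2 largest differences belonged to Snx22 and Snx1, which are neighbours in the RefSeq annotation of the mouse genome. Snx22 encodes a small protein with a PX domain and no other named domain. In Sox2-positive pools 1 to 4 it was at 7.19, 7.80, 7.42 and 7.03, and in Sox2-negative pools 1 to 4 at 6.18, 5.98, 6.27 and 6.41. Every Sox2-positive pool lay above every Sox2-negative pool. Snx22 was 2.22-fold higher (means 7.36 and 6.21 with SD 0.33 and 0.18, n = 4 arrays in each group; log2 difference 1.15, SE 0.15, limma adjusted p = 0.000192).

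Snx1 encodes an SNX-BAR protein that forms dimers with SNX5 or SNX6 and works with retromer. Its Sox2-positive pools 1 to 4 were at 7.52, 7.87, 7.85 and 7.49, and its Sox2-negative pools at 6.57, 6.998, 6.72 and 6.63. The groups were well apart, with the highest Sox2-negative pool, pool 2, below the lowest Sox2-positive pool. Snx1 was 1.94-fold higher (7.68 ± 0.21 against 6.73 ± 0.19; log2 difference 0.95, SE 0.12; limma adjusted p = 0.000169).

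In the same annotation Snx22 overlaps Ppib, a cyclophilin gene of the endoplasmic reticulum, which was at 9.99 ± 0.26 and 9.82 ± 0.32 (log2 difference 0.17, limma adjusted p = 0.616). The gene on the other side of Snx1, Ciao2a, differed by 0.48 (limma adjusted p = 0.0617). Csnk1g1, on the far side of Ppib, differed by -0.30 (limma adjusted p = 0.0586), with the Sox2-negative pools above. These neighbours were looked up after the values of Snx22 and Snx1 were seen.

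The 250 bases before the annotated start are shown for Snx22 and Snx1, as the 2 members with the largest difference, and for Snx3 and Snx18, as the other called members with a motif searched for. They are RefSeq sequences of GRCm38.p6, on the strand of the gene, from the most upstream start in the promoter table, which for some other members lies inside the annotated gene. The window of Snx22 lies at chr9:66069760-66070009 (minus strand), that of Snx1 at chr9:66124887-66125136 (minus), that of Snx3 at chr10:42501804-42502053 (plus) and that of Snx18 at chr13:113618565-113618814 (minus). Capitals mark ACAATG or its reverse complement CATTGT, a core that SOX factors can bind, and CACGTG, the core of the E-box read by regulators of lysosome genes among others.
Snx22: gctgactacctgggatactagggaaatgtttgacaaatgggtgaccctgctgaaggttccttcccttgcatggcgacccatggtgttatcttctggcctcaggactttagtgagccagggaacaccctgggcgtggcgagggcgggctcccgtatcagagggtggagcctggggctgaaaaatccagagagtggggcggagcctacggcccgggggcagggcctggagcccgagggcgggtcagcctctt
Snx1: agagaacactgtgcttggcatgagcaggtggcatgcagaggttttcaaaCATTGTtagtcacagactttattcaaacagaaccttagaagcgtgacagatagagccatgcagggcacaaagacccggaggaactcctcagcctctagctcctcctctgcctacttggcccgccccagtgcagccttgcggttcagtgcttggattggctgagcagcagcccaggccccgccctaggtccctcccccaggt
Snx3: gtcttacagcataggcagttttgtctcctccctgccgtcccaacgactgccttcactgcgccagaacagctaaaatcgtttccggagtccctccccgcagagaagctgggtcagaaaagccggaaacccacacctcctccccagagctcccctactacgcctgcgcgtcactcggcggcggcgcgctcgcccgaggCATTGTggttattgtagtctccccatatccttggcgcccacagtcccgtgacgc
Snx18: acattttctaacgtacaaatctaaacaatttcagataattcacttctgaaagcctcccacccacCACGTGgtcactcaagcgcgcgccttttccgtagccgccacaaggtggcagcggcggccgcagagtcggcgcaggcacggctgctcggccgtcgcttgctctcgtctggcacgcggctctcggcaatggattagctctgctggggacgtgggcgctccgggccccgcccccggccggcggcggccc
On either strand, the SOX core was in the windows of Snx1 and Snx3 among 21 members with a listed promoter, and in 9.0% of 16990 promoters of tested genes. The E-box core was in those of Snx18, Snx5 and Snx8, and in 6.9% of the 16990. Neither motif was in the window of Snx22. A match of letters is a description of the window and not of a bound site.

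**Figure D2:**
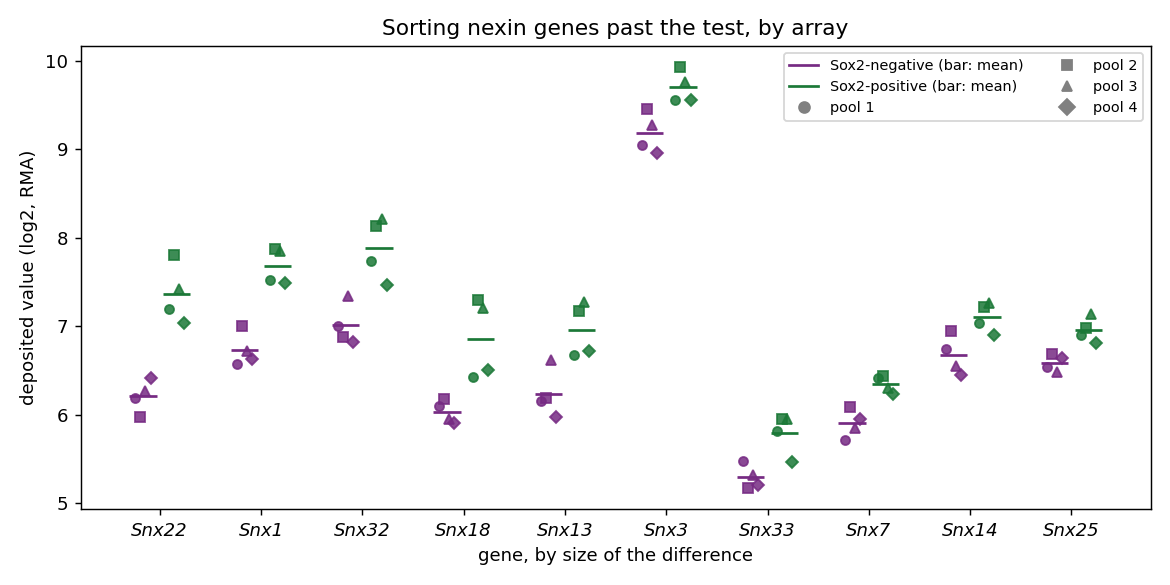
Deposited log2 value of each array for the 10 sorting nexin genes past the test, ordered by their difference, with Sox2-negative pools in purple and Sox2-positive pools in green, a symbol for each pool number and a bar at each group mean (n = 4). The groups overlap for Snx14 and Snx33 only, and Sox2-positive pools 2 and 3 are the highest for every gene except Snx7.

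Among the 12 SNX-BAR genes, 5 were higher and 0 lower (all genes 5.96% and 2.52%), with a median log2 difference of 0.19. After Snx1, the largest difference was that of Snx32, a close relative of Snx5 and Snx6 that is known chiefly from brain. Snx32 was at 7.73, 8.13, 8.21 and 7.46 in the Sox2-positive pools and at 6.998, 6.87, 7.34 and 6.82 in the Sox2-negative pools, with no overlap. It was 1.83-fold higher (log2 difference 0.87, SE 0.16; limma adjusted p = 0.00324). Snx5 and Snx6 had log2 differences of 0.09 (95% interval -0.12 to 0.30) and 0.15 (-0.07 to 0.37) and did not pass. Snx2, the closest relative of Snx1, had a log2 difference of 0.08 (-0.14 to 0.30).

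Snx18 and Snx33, with Snx9, form the SNX9 group, whose proteins add an SH3 domain and act with dynamin in endocytosis. Snx18 was at 6.43, 7.29, 7.20 and 6.50 in the Sox2-positive and at 6.10, 6.17, 5.95 and 5.90 in the Sox2-negative pools. Sox2-positive pools 2 and 3 lay well above pools 1 and 4, which were still above all Sox2-negative pools. The fold was 1.77 (6.86 ± 0.46 against 6.03 ± 0.13; log2 difference 0.82, SE 0.18; limma adjusted p = 0.00952). Snx33 was at 5.81, 5.95, 5.95 and 5.47 against 5.47, 5.17, 5.31 and 5.21, and Sox2-positive pool 4 lay just below Sox2-negative pool 1. It was 1.42-fold higher (log2 difference 0.51, SE 0.12; limma adjusted p = 0.0160), and its Sox2-negative mean (5.29) lay below the 5.80 of the receptor genes. Snx9 was at 6.30, 6.50, 6.26 and 6.16 in the Sox2-positive and at 6.14, 6.09, 5.90 and 6.21 in the Sox2-negative pools, which overlap (log2 difference 0.22, limma adjusted p = 0.249).

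Snx7, Snx30 and Snx4 encode SNX-BAR proteins that pair with each other (SNX4 with SNX7 or SNX30) in recycling and autophagy. Snx7 was at 6.42, 6.43, 6.30 and 6.23 against 5.71, 6.09, 5.85 and 5.95, with no overlap, and was 1.36-fold higher (log2 difference 0.45, SE 0.10; limma adjusted p = 0.0114). Snx30 had the most negative difference of the family, -0.18 (95% interval -0.36 to 0.01; limma adjusted p = 0.286), at 6.86 ± 0.07 against 7.04 ± 0.10. Snx4 differed by 0.16 (limma adjusted p = 0.469), and Snx8, linked to endosome-to-Golgi transport, one of 0.11 (limma adjusted p = 0.591).

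Of the 4 genes for proteins with PXA and PXC domains, 3 were higher and 0 lower (all genes 5.96% and 2.52%). Their median log2 difference was 0.40. The group is small, and the calls of Snx14 and Snx25 each ended on leaving out some single arrays. Snx13, whose protein is known to act in lipid and cholesterol transport, was at 6.67, 7.17, 7.27 and 6.72 in the Sox2-positive and at 6.15, 6.19, 6.61 and 5.98 in the Sox2-negative pools. The groups did not overlap, though Sox2-negative pool 3 came close to Sox2-positive pool 1. The fold was 1.66 (log2 difference 0.73, SE 0.16; limma adjusted p = 0.00988).

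Snx14, which in humans is mutated in a childhood cerebellar ataxia, was at 7.04, 7.21, 7.26 and 6.90 against 6.74, 6.94, 6.54 and 6.45. Sox2-negative pool 2 lay above Sox2-positive pool 4, so the groups overlapped. It was 1.35-fold higher (log2 difference 0.43, SE 0.12; limma adjusted p = 0.0417). Snx25, linked to TGF-beta receptor breakdown, was at 6.90, 6.97, 7.13 and 6.80 against 6.53, 6.68, 6.49 and 6.64 and was 1.29-fold higher (log2 difference 0.37, SE 0.09; limma adjusted p = 0.0281). Snx19 had Sox2-positive pools at 6.52, 6.58, 6.48 and 6.51 and Sox2-negative pools at 6.34, 6.35, 6.39 and 6.29, which did not overlap. Its difference of 0.18 (95% interval 0.01 to 0.35) did not pass the limma test over all genes (adjusted p = 0.216).

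Among the 11 genes of PX-only and other sorting nexins, the median log2 difference was 0.08. There 2 were higher and 0 lower, beside 5.96% and 2.52% of all genes. Besides Snx22 this was Snx3, whose protein works with retromer to return the Wnt carrier Wntless to the Golgi. Snx3 was at 9.56, 9.93, 9.76 and 9.56 in the Sox2-positive and at 9.04, 9.46, 9.27 and 8.95 in the Sox2-negative pools, where the lowest Sox2-positive and the highest Sox2-negative pool were 9.56 and 9.46. It was 1.44-fold higher (log2 difference 0.52, SE 0.12; limma adjusted p = 0.0177). Snx12, its closest relative, had a log2 difference of 0.01 (95% interval -0.21 to 0.24).

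Snx24 had the largest difference among the members that did not pass, 0.24 (95% interval -0.02 to 0.50, limma adjusted p = 0.301), at 5.66, 5.995, 6.12 and 6.12 against 5.63, 5.60, 5.99 and 5.71. Snx10, Snx15, Snx16 and Snx29 lay between 0.03 and 0.08. Snx20, known from white blood cells, Snx11 and Snx21 had differences of -0.13, -0.04 and -0.002. The other probe set of Snx11 had a log2 difference of -0.29, which did not pass either (limma adjusted p = 0.305 over all probe sets).

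None of the 3 SNX-FERM genes passed (0 higher, 0 lower), where all genes had 5.96% and 2.52%. Snx27, whose protein returns receptors with a PDZ-binding tail to the surface, was at 7.40, 7.64, 7.44 and 7.31 against 7.33, 7.30, 7.15 and 7.16 (log2 difference 0.21, 95% interval 0.01 to 0.42; limma adjusted p = 0.225). Snx17, whose protein returns LRP1 and integrins to the surface, was at 7.86, 8.002, 8.04 and 7.73 against 7.81, 7.93, 7.80 and 7.44 (log2 difference 0.16, 95% interval -0.09 to 0.41; limma adjusted p = 0.484). The pools of both genes overlapped. Snx31 had a log2 difference of -0.14 (95% interval -0.35 to 0.08). Over all 20 members that did not pass, differences ran from -0.18 to 0.24 and the 95% intervals reached from -0.37 to 0.50.

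**Figure D3:**
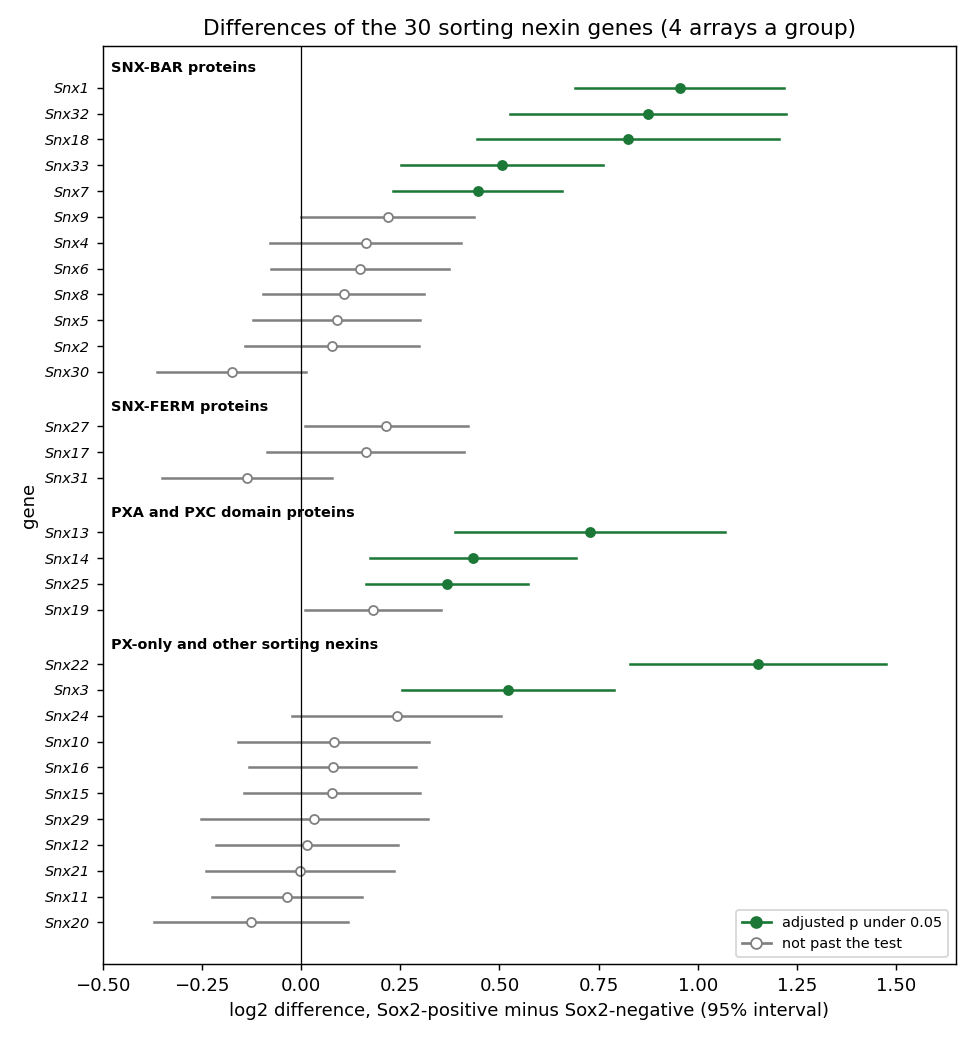
Log2 difference between the fractions with its 95% interval for the 30 sorting nexin genes, grouped by the domains of their proteins (4 arrays a group; filled green, adjusted p under 0.05). The filled points reach from 0.37 for Snx25 to 1.15 for Snx22, and the open ones from -0.18 for Snx30 to 0.24 for Snx24.

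Whether close relatives differed in their response was tested on the difference between their values within each array, over 12 pairs, with a two-sided exact permutation test over the 8 arrays. The pairs were set after the values were seen, and an exact test of 4 arrays against 4 cannot go below p = 0.0286. The difference of Snx1 exceeded that of Snx2 by 0.88, that of Snx32 exceeded that of Snx5 by 0.78, and that of Snx7 exceeded that of Snx30 by 0.62. That of Snx18 exceeded that of Snx9 by 0.61, and that of Snx3 exceeded that of Snx12 by 0.51 (exact permutation p = 0.0286 for each of these 5 pairs, adjusted p = 0.0686 over the 12). Snx18 and Snx33 differed by 0.32 (exact permutation p = 0.171), and Snx32 and Snx6 by 0.73 (exact permutation p = 0.0571). None of the 12 pairs passed after adjustment, and with 5 pairs at the smallest p the adjusted value cannot fall under 0.05. The pairs were not matched by mean level, which over the 8 arrays was 9.44 for Snx3 and 5.89 for Snx12. The part of level in these pair differences was not tested.

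The Sox2-positive pools differed among themselves in the same order for most called members. Pools 2 and 3 had the 2 highest Sox2-positive values for 9 of the 10 called members and 6 of the 20 others. The same held for 60.6% of all genes called higher and 20.7% of all genes. The median of the called members was 6.97, 7.25, 7.27 and 6.85 in Sox2-positive pools 1 to 4, and that of the other members 6.30, 6.47, 6.24 and 6.39. The oligodendrocyte progenitor markers averaged 8.80, 9.42, 9.16 and 9.01 in these pools, with pools 2 and 3 highest, as for Sox2. Not all of these markers had that order: pools 2 and 4 were highest for Cspg4, Gpr17 and Sox10. The order was another for the astrocyte markers (7.22, 7.20, 7.73 and 7.05, pools 3 and 1 highest) and for the granule neuron progenitor and neuron markers (8.04, 7.94, 8.31 and 8.03, pool 2 lowest). The part of these differences between pools in the calls was not tested beyond leaving out each array. The calls of Snx1, Snx22, Snx32, Snx18, Snx13 and Snx7 held without any single array. Those of Snx3, Snx14, Snx25 and Snx33 ended without at least 1 of them, with adjusted p from 0.0525 to 0.127. The call of Snx33 ended only without Sox2-positive pool 2 or 3.

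Partners of the sorting nexins were examined as lists of textbook genes. Their counts are to be read beside the 5.96% of all genes called higher and the 2.52% called lower. The lists were not matched by mean level. Of genes other than sorting nexins at a mean level of 7 to 8, 17.6% were called in either direction. Of 16 genes of retromer and the related retriever and CCC complexes, 1 was higher and 0 lower, with a median log2 difference of 0.09. It was Commd6, a CCC subunit, at 7.08 ± 0.18 against 6.66 ± 0.10 (1.35-fold, limma adjusted p = 0.0198). The retromer core did not pass: Vps35 differed by 0.13 (log2, limma adjusted p = 0.700), Vps26a 0.10, Vps26b -0.13 and Vps29 0.25 (limma adjusted p = 0.165). Of 5 genes of the WASH complex, which builds actin on endosomes, 0 passed in either direction, with a median of 0.12. Washc3 had the largest difference, 0.38 (limma adjusted p = 0.117; 0.0269 with the replicate number as a block).

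Of 16 enzymes of endosomal phosphoinositides, 2 were higher and 0 lower (median log2 difference 0.09). Fig4, part of the complex that makes phosphatidylinositol 3,5-bisphosphate, was 1.36-fold higher (limma adjusted p = 0.0329), and the phosphatase gene Inpp5f passed as well, at 5.57 against 5.20 (limma adjusted p = 0.0273). Both means of Inpp5f and the Sox2-negative mean of Fig4 (5.64) lay below the 5.80 of the receptor genes, as did the Sox2-negative means of Wipf1, Rab9 and Sorcs1. Pik3c3, the kinase that makes the lipid that PX domains bind, differed by -0.13 (log2, limma adjusted p = 0.565). Of 22 endosomal Rab GTPases and tethers, 4 were higher and 0 lower (median 0.07). These were Rab9, of endosome-to-Golgi transport (1.57-fold), the early endosome genes Rab5c (1.46-fold) and Rab21 (1.34-fold), and the late endosome gene Rab7 (1.25-fold, limma adjusted p = 0.0482). The calls of Commd6, Fig4, Inpp5f and Rab21 each ended without Sox2-positive pool 2 (adjusted p from 0.0554 to 0.106). Leaving out Sox2-positive pool 3 ended those of Commd6, Fig4 and Inpp5f, as did leaving out Sox2-negative pool 1. Fig4 and Inpp5f also lost theirs when Sox2-negative pool 4 was dropped, and Inpp5f when Sox2-positive pool 4 or pool 2 of the Sox2-negative cells was. The call of Rab7 was not followed in this way. Over all the alternatives given below, the calls of Rab9 and Wipf1 each ended in 1 (limma adjusted p = 0.0517 and 0.0522).

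Of 25 clathrin endocytosis genes, chosen as partners of SNX9, 4 were higher and 1 lower (median log2 difference 0.13). Epn2, an epsin that bends the membrane at clathrin pits, was at 8.79 ± 0.18 against 7.51 ± 0.14 (2.41-fold, limma adjusted p = 5.24e-06). Dnm1, which encodes the dynamin that cuts vesicles free at synapses, was 2.11-fold higher (limma adjusted p = 3.82e-05), Wipf1, a partner of the actin regulator N-WASP, 1.62-fold, and Fcho2 1.49-fold. Bin1, which encodes an amphiphysin, fell by 0.45 on the log2 scale (limma adjusted p = 0.0160).

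Receptors carried by sorting nexins or retromer had 7 of 21 members higher and 1 lower, where all genes had 5.96% and 2.52%, with a median log2 difference of 0.35 (all genes -0.03). Lrp1, the large lipoprotein receptor that SNX17 returns to the surface, was at 9.54 ± 0.09 against 7.15 ± 0.11 (5.25-fold, limma adjusted p = 3.37e-09). The sortilin relatives Sorcs1 and Sorcs3 were 2.10-fold and 1.96-fold higher, and Notch1, Slc2a1, Itgb1 and Vldlr between 1.34-fold and 1.87-fold. Sort1, which encodes sortilin, fell by 0.53 (limma adjusted p = 0.00691). Wls, which encodes the Wntless cargo of SNX3, differed by 0.38 (log2, limma adjusted p = 0.0611), and Sorl1 also by 0.38 (limma adjusted p = 0.0654). In the other direction Egfr differed by -0.48 (limma adjusted p = 0.0543) and Tfrc by -0.38 (limma adjusted p = 0.0801). Fcho2, Bin1, Notch1, Slc2a1, Itgb1, Vldlr, Sort1, Wls, Sorl1, Egfr, Tfrc, Pik3c3, Rab7 and the retromer core genes were named after their values were seen. None of them was followed when arrays were left out or settings changed.

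**Figure D4:**
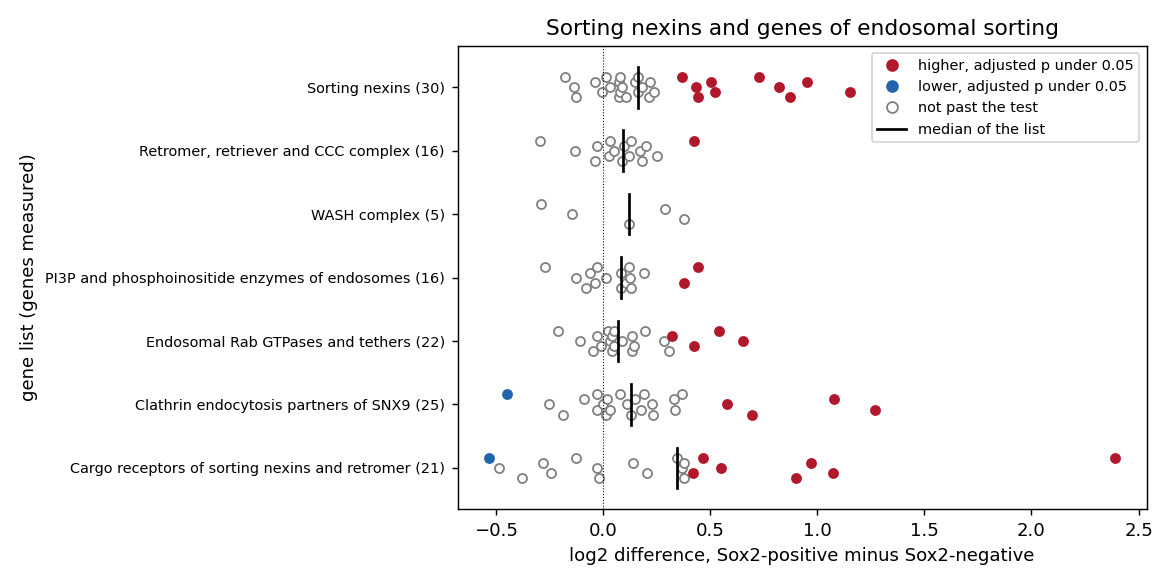
Log2 difference between the fractions for each measured gene of the sorting nexins and of 6 lists of endosomal sorting genes (points; red, higher; blue, lower; open, not past the test), with the median of each list as a bar. The retromer list has 1 red point of 16, the cargo receptors 7 of 21, and the sorting nexins 10 of 30.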

How the data were processed

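The authors deposited 1 log2 value per probe set and array, produced by RMA in Affymetrix Expression Console (version 1.2.0.20), per the submitters' processing notes. RMA equalizes the arrays, so a difference in total RNA per cell is removed, and it compresses folds of dim genes. That these values are log2 follows from their range (2.51 to 13.64). Array medians were 5.83 to 5.88. The number of arrays limits the precision. Values of different probe sets were not compared as expression levels.

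Of 41345 probe sets, the platform annotation gave 23521 with 1 symbol. The one with the highest mean over 8 arrays was kept per gene (22180 genes, no filter on dim genes). Entrez identifiers were checked against RefSeq (GRCm38.p6), and 0 symbols changed. Groups were compared with limma (version 3.58.1, R version 4.3.3; lmFit, then eBayes, group only, two-sided), adjusted by Benjamini-Hochberg over all genes at 0.05. The procedure was tested on simulated data.

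The members and lists were chosen with earlier results of these data known. All members are accounted for. Values per array were given for members past the test, the 3 of highest mean level and the 3 largest differences not past it. Snx19 was added after its values were seen, as its groups did not overlap. From each list up to 3 genes past the test, or the largest, were named. The listed name AI462493 belongs to Uqcc3 and was left out of the WASH list.

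The labels number the pools 1 to 4 in each fraction and do not say that equal numbers share tumours. Same-numbered arrays deviated together from their group means (r over all genes 0.164, 0.114, 0.177 and 0.241), all above 0.1, so the numbers were taken as pairs from the data. Differently numbered arrays reached 0.161, more than the 0.114 of number 2, so the pairing is unsure. The fit without the block was kept as the main one.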

Additional observations from a re-analysis of the deposited data

How the results depend on the processing

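A total of 14 alternatives were planned: the replicate number as a block, quantile normalization, array weights, a variance trend, dim genes left out, the mean of probe sets, and leaving out each of the 8 arrays. Fitting all probe sets was added after seeing the data. Over the planned ones, 386 of 416 values of sorting nexins kept their direction and side of the threshold, 16 lost the threshold, all of them on leaving out 1 array, and 14 changed sign, all of members not past the test. Leaving out 1 array gave 6 to 10 sorting nexins higher and 0 lower, 995 to 1334 of all genes higher and 309 to 591 lower, and a median of the sorting nexins from 0.129 to 0.196. With quantile normalization this median was 0.108, and 847 of all genes were lower. Fitting all probe sets gave 4 sorting nexins higher, and 859 higher and 238 lower of the genes. That fit takes 41345 probe sets in place of 22180 genes, both for the variance estimate and for the adjustment. The unadjusted limma p of Snx13 was 0.0021 there and 0.00046 in the main fit. With the replicate block 10 sorting nexins were higher and 0 lower, and of the genes 1572 were higher and 768 lower. The block changed the call of Washc3 and of no other gene named in the report by the naming rule.

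Sign changes came with leaving out 1 array for Snx11 (-0.066 to 0.0061), Snx12 (-0.082 to 0.074), Snx15 (-0.0054 to 0.15), Snx21 (-0.086 to 0.059) and Snx29 (-0.091 to 0.14). Snx21 was at 0.014 with quantile normalization and Snx29 at -0.010 with array weights. The cause of these changes was not tested. The table holds no detection call, so whether Snx20, Snx21, Snx24 and Snx33, each with a group mean below 5.80, were above background is not known.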

Other observations

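Snx33 neighbours Cspg4, the oligodendrocyte progenitor gene for the NG2 proteoglycan, in the RefSeq annotation. Cspg4 was at 7.82, 8.14, 7.83 and 8.11 in Sox2-positive pools 1 to 4 and at 5.9996, 5.54, 5.78 and 6.05 in Sox2-negative pools 1 to 4, with no overlap. It was 4.38-fold higher (limma adjusted p = 1.47e-07), against 1.42-fold for Snx33. This pair was noticed after the values were seen.

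Snx2 and Snx24 are neighbours as well, and neither passed the test (log2 differences 0.08 and 0.24).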
